A study of Nicrophorus vespilloides with 60 samples.

Results

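A set of 150 genes had a lower mean level, on a log scale, in larvae raised without parents than in larvae raised with them. The samples were heads of burying beetle (*Nicrophorus vespilloides*) larvae of 4 experimental lines, and the genes were lower in each line. These genes were selected on the measured care difference itself, out of 13761 counted genes. Counts were scaled to the total of their library (CPM), and log2(CPM + 1) in larvae without care minus that in larvae with care was averaged for each line. Genes with a mean CPM of 1 to 500, both population means negative and the mean difference in the no care lines from 0.5 to 2 times that in the full care lines were ranked by the smallest fall of the 4 lines, and the 150 with the largest such fall were kept. Of the 1919 genes that met these limits before ranking, the last 3 kept (gene1489, gene6063 and gene2904) had smallest falls of -0.89, -0.89 and -0.89, and the first 3 left out (gene1460, gene8777 and gene7081) had -0.87, -0.87 and -0.85. Every care difference of these genes is therefore a description of how they were chosen, and the counts of calls given for it further on describe the selection and support nothing. All 150 passed the filter on low counts that left 11777 genes for testing.

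Burying beetles breed on the carcass of a small animal, and parents defend the nest and feed their begging larvae, although larvae can also feed themselves. An insect larva grows inside a cuticle of chitin and protein that the epidermis lays down and replaces at each moult. Cuticular proteins bind chitin or fill the space between its fibres, and their genes are commonly switched on and off in bursts tied to the moulting cycle.

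RNA of pooled heads of first-instar larvae was sequenced, with 1 library per family. The no care populations (NC_POP, lines N1 and N2) had been bred for generations with both parents taken away before the eggs hatched, and the full care populations (FC_POP, lines F1 and F2) with parents present throughout. In each line some families were raised without parents (NC_ENV) and others with them (FC_ENV). NC_POP gave 12 NC_ENV libraries and 11 FC_ENV libraries, and FC_POP gave 11 NC_ENV libraries and 12 FC_ENV libraries. Lines N1 and F1 were kept in block 1 and lines N2 and F2 in block 2, so that within a population line and block cannot be told apart. The 46 libraries held from 102719698 to 145666277 counts (median 115258788). Families are the replicates, so p-values measure the spread among families of these 4 lines. A pooled head holds many tissues, and fewer cells of a type and less RNA per cell cannot be told apart. Of the head markers looked for, cuticle proteins aside, only a pair of odorant-binding proteins (gene7698 and gene12339) could be matched to an identifier. Such proteins carry odours in insect antennae. The highest values of the pair in any library were 6.07 and 0.58 CPM. Opsins and the neural markers looked for were not matched to identifiers. The 82 named genes described below include 3 neural receptor genes, which were not among those markers. The tissue label was not checked further.

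Several libraries sat at the level of the other environment, and this touches every value that follows. The mean of log2(CPM + 1) over the 150 genes was 1.95 in FC_ENV family N1_27, 2.99 in F2_31, 3.72 in F2_32 and 3.61 in F1_18, where the other FC_ENV families ran from 4.81 to 6.81. Among NC_ENV families it was 6.29 in N2_08 and 5.11 in F1_01, where the others ran from 2.03 to 4.60. In 8 of the 46 libraries, more than 50% of the genes were closer to the mean of the other environment of their own line, with 96.0% in N1_27, 93.3% in F2_31, 92.0% in N2_08, 91.3% in F1_18, 87.3% in F2_32, 78.7% in F1_01, 68.0% in F2_38 and 60.0% in N2_21. The totals of these 8 libraries lay within the range of the rest, from 110375082 to 126570091 counts. What set them apart was not tested.

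**Figure D1:**
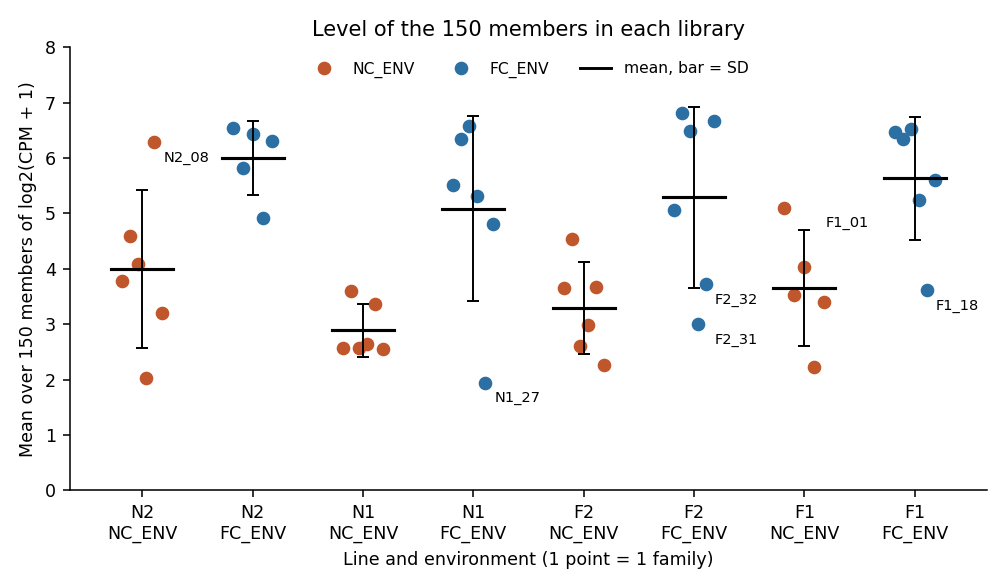
Mean of log2(CPM + 1) over the 150 genes (vertical axis) in each of 46 libraries, by line and environment, with the group mean and SD. The NC_ENV groups average from 2.89 to 4.0 and the FC_ENV groups from 5.08 to 6.0, while labelled families such as N1_27 (1.95) and N2_08 (6.29) lie at the level of the other environment.

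By line, the mean level was 4.0 ± 1.42 in N2 larvae without care and 6.0 ± 0.66 with care (SD, n = 6 and 5), 2.89 ± 0.47 and 5.08 ± 1.67 in N1 (n = 6 each), 3.29 ± 0.83 and 5.29 ± 1.64 in F2 (n = 6 each), and 3.66 ± 1.05 and 5.63 ± 1.12 in F1 (n = 5 and 6). The median difference over the 150 genes was -1.88 in N2, -1.88 in N1, -1.80 in F2 and -1.82 in F1 on the log2(CPM + 1) scale, against medians over all tested genes of 0.09, 0.13, 0.05 and 0.10. The rule ranked genes on this scale, and the medians fitted by edgeR, given further on, lay further apart between the lines. Line N1 had the largest fall of the 4 lines in 64 genes, F2 in 37, N2 in 27 and F1 in 22. All 4 lines were lower by at least 1 in 132 genes, by at least 2 in 35 and by at least 3 in 10. Complete separation of the families was rare. Every NC_ENV family was below every FC_ENV family for 10 of the 150 genes in N2 (6.67%, against 5.13% of all tested genes), 8 in N1 (5.33% against 1.68%), 2 in F2 (1.33% against 5.48%) and 3 in F1 (2% against 3.66%). The rule ranks line means and does not fix the overlap of families, but larger differences of means make separation more likely. These counts are therefore a description too. The share was near or below that of all tested genes in N2, F2 and F1 and above it in N1.

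**Figure D2:**
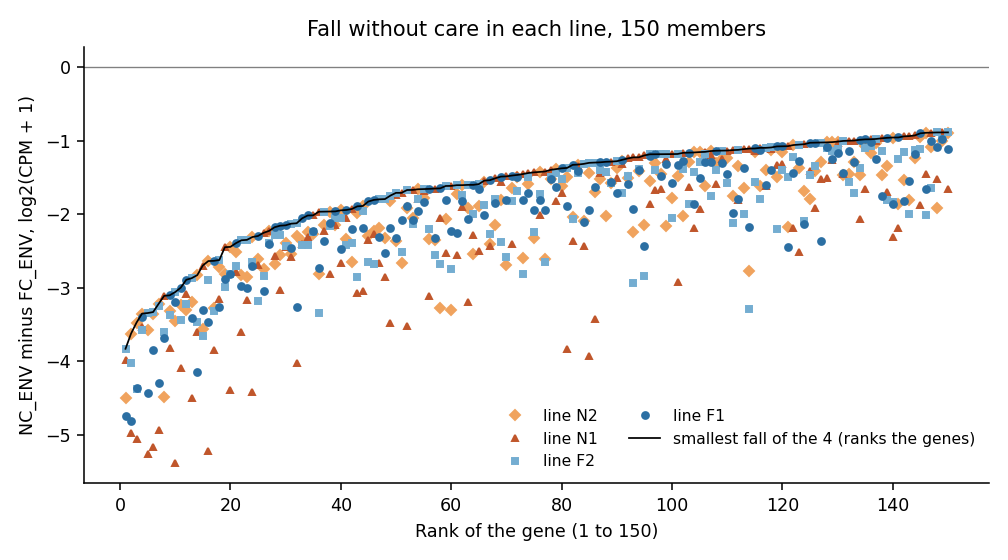
Difference between NC_ENV and FC_ENV in log2(CPM + 1) (vertical axis) for each of the 150 genes in rank order (horizontal axis), 1 point per line, with the smallest fall of the 4 lines as a line. The smallest fall runs from -3.83 to -0.89, and N1 points reach -5.39.

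The gene with the largest shared fall was gene7431, for which the sources used here give no name. It had 1.35, 6.57 and 88.3 CPM (lowest, median and highest) in NC_POP larvae without care and 3.83, 261 and 1100.2 CPM in NC_POP larvae with care. In FC_POP it had 1.13, 3.40 and 68.7 CPM without care and 5.04, 257 and 632 CPM with care. The medians were far apart in both populations, and the ranges overlapped because of the few families named above. The neighbouring identifiers gene6899 and gene6900 followed the same course. For gene6900 the NC_POP values were 0, 1.80 and 132 CPM without care and 0.0954, 99.1 and 400 CPM with care, and the FC_POP values were 0, 0.384 and 32.7 CPM without care and 1.35, 132 and 359 CPM with care. Among the 5 genes with the highest mean CPM was gene142, with 0.672, 29.4 and 565 CPM without care and 1.29, 730 and 1309 CPM with care in NC_POP larvae, and 0.807, 49.3 and 297 CPM without care and 51.1, 716 and 2853 CPM with care in FC_POP larvae. Its ranges also overlapped in both populations. In gene7672 the FC_POP larvae without care stayed between 0.0460 and 0.872 CPM in all 11 families, while those with care ran from 0.172 to 246 CPM.

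Product names were available for 15 of the 150 genes. They come from a list of 82 genes that the study chose on these same samples for a response found in NC_POP and not in FC_POP. The mix of names is therefore no independent evidence about the set, nor is a difference between the populations in calls of named genes. Among those 82, 7 of the 12 genes with a cuticle or similar structural product belonged to the 150. In all, 10 of the 12 were lower in all 4 lines. The 12 are called cuticular here, although gene8825 is named for keratin and gene4422 for filaggrin. Of the 22 uncharacterised or long non-coding genes in the list none belonged, with 4 lower in all 4 lines. The other classes were small, with 2 of 5 immunity genes, 1 of 5 sugar genes, 1 of 4 lipid genes and 0 of 7 detoxification genes.

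Apart from gene6796 (mean 24.8 CPM), the cuticular members had mean levels above the median of the 150 genes, 41.9 CPM. Gene3237, a larval cuticle protein A3A-like gene (LOC108557124), had 2.02, 108 and 696 CPM in NC_POP larvae without care and 7.60, 756 and 1426 CPM with care. In FC_POP larvae it had 2.47, 128 and 741 CPM without care and 156, 788 and 1758 CPM with care. Both populations thus had medians several times lower without care, with overlapping families. Gene4423, a pupal cuticle protein 20-like gene (LOC108558459), had 6.41, 68.6 and 748 CPM without care and 2.41, 478 and 632 CPM with care in NC_POP, where the highest value of all belonged to N2_08 and the lowest to N1_27. In FC_POP it had 11.0, 103 and 482 CPM without care and 28.9, 558 and 1066 CPM with care. The flexible cuticle protein 12-like genes gene7462 (LOC108561837) and gene7362 (LOC108561729), named after a protein of soft cuticle, had NC_POP medians of 29.4 and 45.4 CPM without care and 271 and 257 CPM with care. Their FC_POP medians were 43.6 and 87.8 CPM without care and 218 and 267 CPM with care. Gene6796, a pupal cuticle protein C1B-like gene (LOC108561102), had medians of 4.10 CPM without care and 25.4 CPM with care in NC_POP and 11.9 and 52.3 CPM in FC_POP. Gene3661, larval cuticle protein A2B-like (LOC108557600), had 125 and 462 CPM in NC_POP and 186 and 487 CPM in FC_POP in the same order. Gene8825 (LOC108563350) is called keratin type I cytoskeletal 9-like by similarity only, since insects make no keratin filaments, and had medians of 138 and 324 CPM in NC_POP and 156 and 474 CPM in FC_POP. For all 7 genes some families of the NC_ENV overlapped with the FC_ENV.

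Other cuticular genes of the list went the opposite way. The neighbouring pupal cuticle protein C1B-like genes gene5093 (LOC108559212) and gene5094 (LOC108559211), which do not belong to the 150, were higher without care in all 4 lines, with medians of 534 and 185 CPM without care and 213 and 86.8 CPM with care in NC_POP, and 253 and 110 CPM without care and 92.9 and 56.6 CPM with care in FC_POP. Gene5094 passed the thresholds in NC_POP (log2 fold change 1.47, SE 0.43, adjusted p = 0.00809, edgeR) and not in FC_POP (0.79, SE 0.42, adjusted p = 0.123), and the difference between the populations was not tested here. The counts of calls over the 12 cuticular genes are a description too, since 7 of the 12 were selected on this difference. The study also picked the whole list for it in NC_POP and left out genes it called in FC_POP. The split of calls between the populations was thus partly fixed in advance. In NC_POP edgeR called 4 lower, 3 of them members (gene7362, gene3661 and gene7462), and 1 higher, at an adjusted p under 0.01 and an absolute log2 fold change of at least 1, where 0.951% of tested genes were called lower and 1.36% higher. In FC_POP it called 0 either way (2.72% lower and 4.34% higher). At an unadjusted p under 0.05 there were 9 lower and 2 higher in NC_POP (20.8% and 23.5% of tested genes) and 9 lower and 1 higher in FC_POP (25.7% and 28.3%). DESeq2 called 8 lower and 2 higher in NC_POP (1.52% and 2.04% of the genes it tested) and 6 lower and 0 higher in FC_POP (3.39% and 4.99%).

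**Figure D3:**
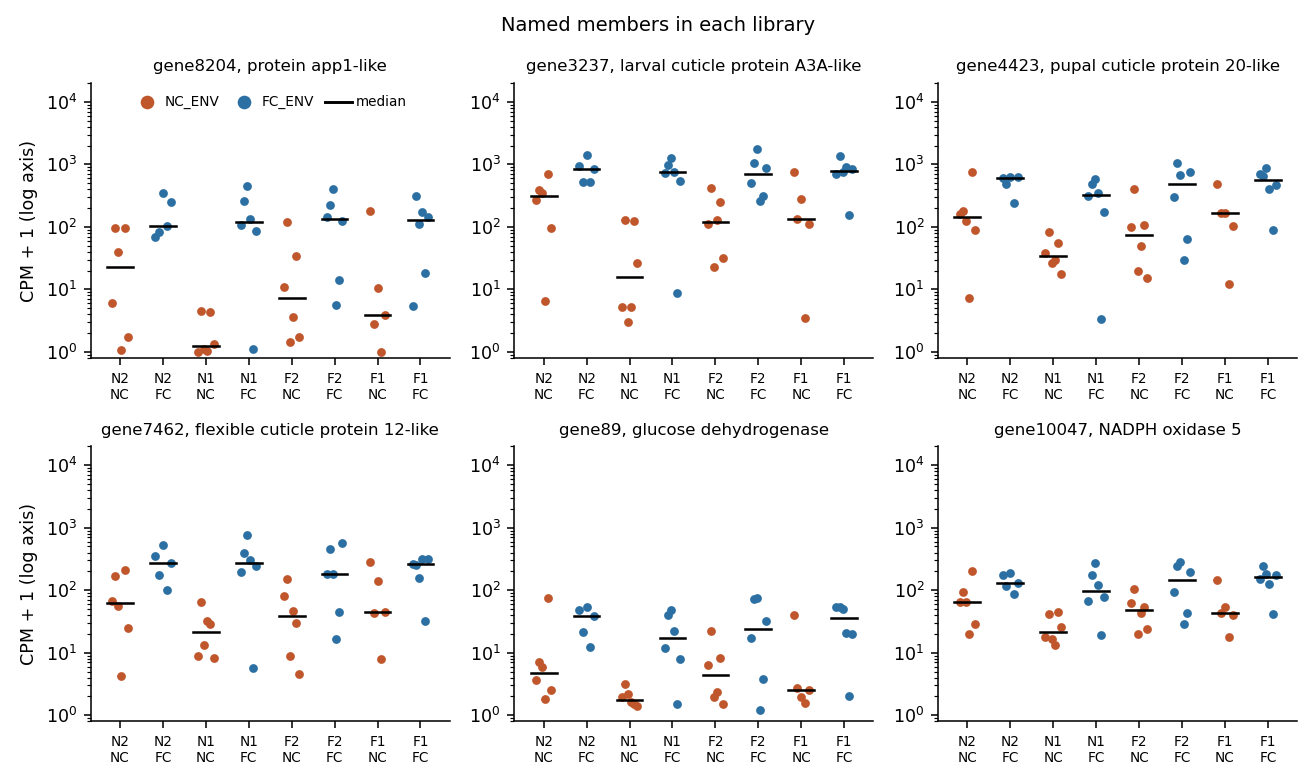
CPM plus 1 on a log axis in each of 46 libraries for 6 named genes, by line and environment, 1 point per family, with medians as lines. Without care the medians are lower in all 4 lines, and single points such as N1_27 with care (2.41 CPM of gene4423) cross over.

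The remaining named genes span enzymes and secreted proteins. Gene8204 (LOC108562653), protein app1-like, had 0, 2.03 and 95.2 CPM in NC_POP larvae without care and 0.119, 105 and 454 CPM with care, and 0, 2.96 and 177 CPM without care and 4.33, 135 and 403 CPM with care in FC_POP. It lay beside gene8202 and gene8203, both of which also belonged to the 150. Gene89 (LOC108561928) encodes a glucose dehydrogenase, an oxidising enzyme, and had medians of 1.35 CPM without care and 21.6 CPM with care in NC_POP and 1.55 and 25.1 CPM in FC_POP. Single families stood out in it, with N2_08 at 73.9 CPM and F1_01 at 39.4 CPM without care. Gene10047 (LOC108564697) encodes NADPH oxidase 5, a calcium-regulated enzyme that makes superoxide, and had medians of 33.95 and 119 CPM in NC_POP and 42.9 and 160 CPM in FC_POP in the same order. Gene9926 (LOC108564562) is annulin-like, after a transglutaminase of grasshopper embryos, and had medians of 2.98 and 11.3 CPM in NC_POP and 3.99 and 9.96 CPM in FC_POP. Gene6063 (LOC108560296), a C-type lectin 37Db-like gene for a sugar-binding protein, had 19.7 and 45.9 CPM in NC_POP and 27.7 and 47.8 CPM in FC_POP. The ranges of the environments overlapped for each of these genes. Gene9612 (protein singed wings 2), gene6139 (a phospholipase B1-like gene, for an enzyme that cleaves membrane lipids) and gene9907 (a putative cyclin-dependent kinase) had medians of 7.31, 0.652 and 0.767 CPM without care and 46.7, 5.30 and 6.33 CPM with care in NC_POP, and of 14.8, 0.959 and 0.783 CPM without care and 29.2, 5.48 and 7.79 CPM with care in FC_POP.

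A test of the care difference across all 11777 genes, given as a description because the rule used it, called 67 of the 150 lower in NC_POP, where 0.951% of tested genes were called lower, and 106 in FC_POP, where 2.72% were. Calls needed an adjusted p under 0.01 and an absolute log2 fold change of at least 1. There were 62 genes called in both populations and 39 in neither. The median log2 fold change was -1.94 in NC_POP and -2.30 in FC_POP. In the fit by line it was -1.44 in N2, -2.95 in N1, -2.57 in F2 and -2.05 in F1. The 1 member above 0 in that fit was gene5870 in N2 (log2 fold change 0.48). There 5 of 6 families without care had 0 counts of gene5870 and the highest had 21.1 CPM. Of the 15 named genes 7 were called in NC_POP and 3 in FC_POP, and gene6063 and gene9926 were the 2 called in both. The list behind their names left out genes the study called in FC_POP, so the order of these 2 counts is no result. The NC_POP call of gene6063 sat at the fold limit and was lost without any of 30 of the 46 libraries, while both calls of gene9926 held without any 1 library. Among the lines, 5 genes were called in N2 (0.195% of tested genes), 61 in N1 (0.909%), 59 in F2 (1.97%) and 13 in F1 (0.611%). The NC_POP count rested on single libraries. It was 129 without N2_08, 39 without N2_16, 42 without N2_18, 43 without N1_25 and 44 without N1_37. The share of all tested genes called was not counted in these settings.

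Families of the same group spread widely in the 150 genes. The rule used group means only, but large differences of means over few families are easier to reach for genes that vary widely. The spread is therefore not independent of the selection. The members were also not matched to the tested genes by level (median of the mean CPM 41.9 against 13.2). The median SD over the genes was 1.55 in N2 without care and 0.65 with care, 0.71 and 1.59 in N1, 0.87 and 1.72 in F2, and 1.09 and 1.27 in F1, on the log2(CPM + 1) scale. Over all tested genes the median SD ran from 0.18 to 0.26 in the same 8 groups. The SD of all 150 genes exceeded that median in N2 without care and in the 4 groups with care, as did that of 136 in N1, 140 in F2 and 146 in F1 without care. The environment with the wider spread was NC_ENV in N2 and FC_ENV in the other lines.

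The families moved these genes together. After subtracting the mean of each of the 8 groups, 11175 pairs of members had a median Pearson correlation of 0.73 over the 46 libraries, and 99.4% of them were positive. Over all 69342976 pairs of tested genes the median was 0.10, and 63.9% were positive. The points share libraries, and correlations between genes are given without a test. Members were selected for falls shared by all lines, so a family at the level of the other environment deviates in many at once. The covariation is therefore not independent of the selection. Pairs of all tested genes were not matched to the members by level or spread, and the 8 libraries listed above were not left out together. The median for pairs of members was 0.65 over NC_ENV libraries and 0.81 over FC_ENV libraries alone, 0.69 without N1_27 and 0.71 without N2_08. Of the 150 genes, 124 had a correlation above 0.7 with the mean of the other members. The highest was 0.98 for gene7673 and the lowest 0.35 for gene13234. Gene4423 reached 0.95, gene10047 0.95, gene7362 0.93 and gene89 0.93, and gene6063 had 0.50. The closest pair, gene2382 and gene2384, had a correlation of 0.999 and stood 2 identifier numbers apart. Whether the authors' counting shared reads between them is not given in the sources used here, so their separate levels are uncertain.

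**Figure D4:**
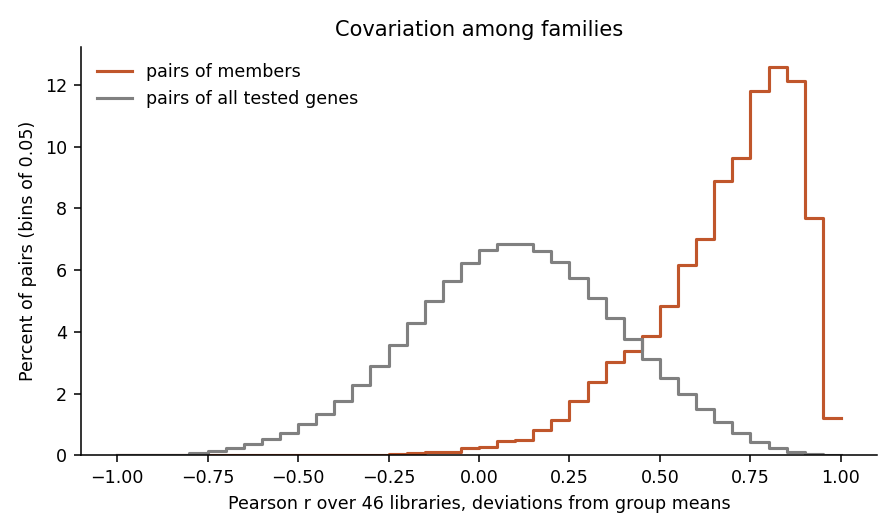
Percent of gene pairs (vertical axis) by Pearson correlation of deviations from group means over 46 libraries (horizontal axis), for pairs of the 150 genes and pairs of all 11777 tested genes. Pairs of members centre on 0.73 and pairs of all genes on 0.10.

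Genes outside the 150 followed the same family course. Among the 11627 other tested genes, 96 (0.826%) had a correlation above 0.8 with the mean of the members and 144 (1.24%) below -0.8. Of the 96, 24 were among the 30 genes with falls as large in all lines whose mean CPM was above 500. Most alike were gene5972 (0.96, mean 837 CPM), gene7674 (0.96, 1135 CPM), gene13065 (0.95, 532 CPM), gene7432 (0.95, 1126 CPM) and gene4422 (0.95, 759.8 CPM), a filaggrin-2-like gene (LOC108558458) next to gene4423. On the opposite side gene6120 had -0.91 and gene10587 -0.90, and both were higher without care in all 4 lines, by 0.14 to 0.48 and by 0.33 to 0.81.

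Many of the genes carried consecutive identifiers. For the 82 identifiers with a published symbol, the number equalled the place of that symbol in the RefSeq gene table of the assembly in 82 of 82 cases, which lists genes in order without scaffold names, so no position is given here. In 19 runs of consecutive numbers there were 57 of the 150 genes, and 67 had another member at most 2 numbers away. The longest run held 7 genes, gene7459 to gene7465, and includes the flexible cuticle gene7462. A run of 6 spanned gene3333 to gene3338, and runs of 4 spanned gene7359 to gene7362, which ends in the other flexible cuticle gene, gene1482 to gene1485 and gene2381 to gene2384. Of the 30 genes above 500 CPM, 13 were 1 number away from a member. One such stretch was gene138 to gene143, where gene139, gene140 and gene142 belonged to the 150, and gene138, gene141 and gene143 had mean levels of 632, 1566 and 638 CPM with falls from -0.96 to -5.44 over the lines.

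Whether the populations themselves differed was a contrast the rule left free. No member was called for NC_POP against FC_POP, averaged over both environments (0 of 150 by edgeR's quasi-likelihood test, where 0.0849% of tested genes were called higher and 0.0594% lower). At an unadjusted p under 0.05 there were 3 higher (8.75% of tested genes) and 0 lower (6.91%), and DESeq2 called 2 higher (0.199%) and 0 lower (0.156%). The median log2 fold change was 0.04, against -0.0027 over all tested genes. Single libraries moved it, to -0.28 without N2_08, where its sign changed, and to 0.19 without F1_01. The median of 0.04 hid opposite signs in the blocks, with -0.77 in block 1 (N1 against F1) and 0.70 in block 2 (N2 against F2). In block 2 alone 1 gene was called, and the share of all tested genes called there was not counted. The lowest adjusted p belonged to gene3335 and gene13234. Gene3335 had medians of 4.47 CPM in N2 and 4.88 CPM in N1 without care and 11.3 and 26.3 CPM with care, against 0.758 CPM in F2 and 2.78 CPM in F1 without care and 5.07 and 17.2 CPM with care. The ranges of the lines overlapped, except that without care the highest F2 family (2.25 CPM) was below the lowest N1 family (2.32 CPM). The log2 fold change of gene3335 was 1.40 (SE 0.37, adjusted p = 0.0291, edgeR). For gene13234 it was 1.08 (SE 0.30, adjusted p = 0.0375, edgeR). This gene was also lower in F2 than in F1 (log2 fold change -1.44, SE 0.41, adjusted p = 0.027, edgeR). In N2 against N1 it had -0.15 (SE 0.40, adjusted p = 0.823, edgeR). The population value of gene13234 is therefore an average over full care lines that differed from each other.

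Most members had higher values in N2 than in N1, the lines of the no care population, although few passed the test singly. In N2 against N1 larvae, averaged over both environments, 145 of the 150 genes had a log2 fold change above 0 with a median of 1.22, while the median over all tested genes was -0.01 and 48.1% were above 0. Since the members move together from family to family, these 145 are not separate observations, and the mean levels of the families overlapped between the lines in both environments. At an adjusted p under 0.05 there were 35 higher (23.3% of the members, against 6.37% of tested genes) and 0 lower (0%, against 7.2%), by edgeR. At the stricter thresholds 1 gene was called higher, where 0.161% of tested genes were, and 0 lower, where 0.399% were, while DESeq2 called 20 higher (0.476% of the genes it tested). At an unadjusted p under 0.05 there were 84 higher (56% of the members, against 14.8% of tested genes) and 0 lower (16.4% of tested genes). The median was 1.95 in NC_ENV alone and 0.47 in FC_ENV alone, 2 comparisons added after seeing the data. There 97 genes (64.7%, against 11.3% of tested genes) and 9 genes (6%, against 8.78%) had an unadjusted p under 0.05 with a higher level in N2. At the stricter thresholds 0 were called in NC_ENV (0.00849% of tested genes higher and 0.0255% lower) and 0 in FC_ENV (0.0425% and 0.0509%). On the log2(CPM + 1) scale the mean levels were 4.0 in N2 and 2.89 in N1 without care, and 6.0 and 5.08 with care. On that scale the lines stood about as far apart in both environments, so the contrast of the 2 medians depends on the scale. The NC_ENV comparison was not repeated without N2_08. Family N2_08 carried part of the difference averaged over both environments: without it the median was 0.76 and 0 genes were called. Without N1_27 the median was 1.08 with 1 gene called, and 2 genes were called without N1_32, N2_07, N2_10 or N2_21. Because line and block coincide, the difference cannot be told apart from one between blocks.

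The gene called was gene11237. Its families had 0.607, 2.27 and 109 CPM in N2 and 0.0824, 0.536 and 1.42 CPM in N1 without care, and 4.26, 25.9 and 77.4 CPM in N2 and 0.103, 3.44 and 10.6 CPM in N1 with care (lowest, median and highest, n = 6, 6, 5 and 6). The highest of these, 109 CPM, was N2_08. N2 ranges overlapped with those of N1 in both environments. The log2 fold change was 4.34 (SE 0.93, adjusted p = 0.00346, edgeR), and 2.95 with an adjusted p of 0.0208 without N2_08. A steadier case was gene5513, at 16.7, 23.1 and 38.3 CPM in N2 and 12.4, 15 and 20.8 CPM in N1 without care, and 38.4, 52.1 and 55.9 CPM in N2 and 21.4, 35.3 and 38.6 CPM in N1 with care. These ranges overlapped without care and barely touched with care, and the log2 fold change of gene5513 was 0.72 (SE 0.18, adjusted p = 0.0105, edgeR).

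In the full care population, 118 of the 150 genes were below 0 in F2 against F1, with a median of -0.26 (-0.0025 over all tested genes). Family F1_01 weighed on this, since the median without it was 0.02. At an adjusted p under 0.05 there were 2 lower (1.33%, against 2.45% of tested genes), gene11239 and gene13234. The single gene called, where 0.161% of tested genes were called lower, was gene11239, 2 numbers from gene11237, and DESeq2 called 2 lower (0.357% of the genes it tested). It had 0 counts in all 6 F2 families without care, against 0 to 6.59 CPM in F1, and 0 to 6.46 CPM in F2 against 0.152 to 76.6 CPM in F1 with care. With the F2 group without care set to a floor of 3 counts, its mean was about 353-fold lower than the F1 mean of 1.54 CPM. Without F1_01 it was about 64-fold lower than the F1 mean of 0.279 CPM. Both ratios depend on the chosen floor, and 39.8% of counts from 1 to 100 were multiples of 4, so they are no strict bounds. The fitted log2 fold change of gene11239 over both environments was -7.15 (adjusted p = 0.00715, edgeR), which depends on how 0 counts are treated and is no bound. The call was lost without any of F1_01, F1_04, F1_14, F1_16, F2_26, F2_32, F2_34, F2_36, F2_38, F2_41, F2_43, F2_47 or N1_33, each leaving 0 genes called, with an adjusted p from 0.0101 to 0.0234. In NC_ENV alone 0 genes were called (0.0425% of tested genes higher and 0.0255% lower) and in FC_ENV alone also 0 (0% and 0.0255%), and 8 (5.33%, against 7.7% of tested genes) and 2 (1.33%, against 3.97%) members were lower at an unadjusted p under 0.05.

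**Figure D5:**
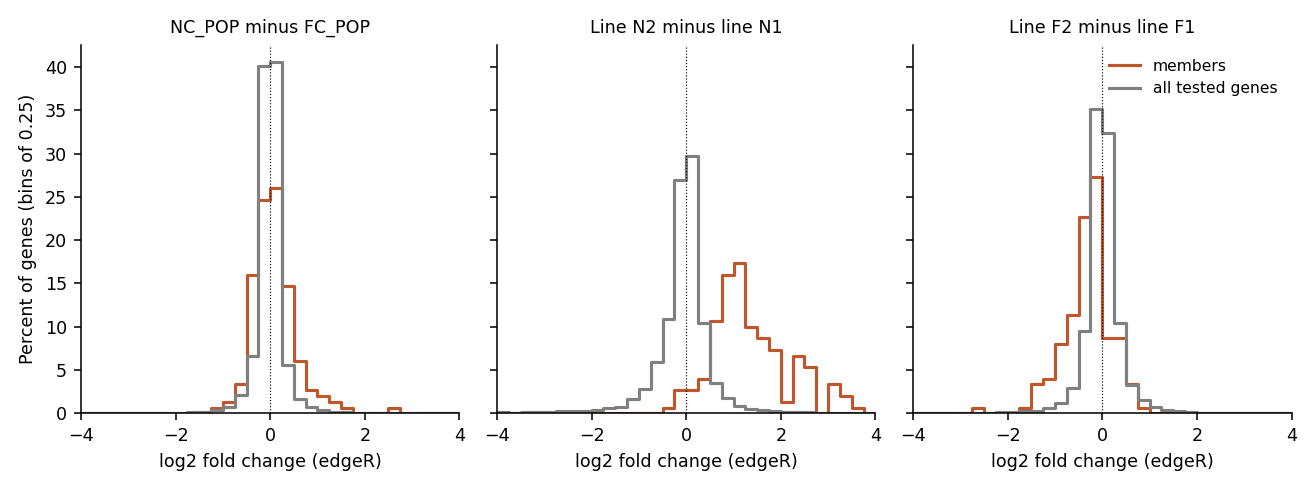
Percent of genes (vertical axis, bins of 0.25) by log2 fold change from edgeR (horizontal axis, shown from -4 to 4) for the 150 genes and all 11777 tested genes, in NC_POP minus FC_POP, N2 minus N1 and F2 minus F1. The members centre on 0.04, 1.22 and -0.26, and gene11237 at 4.34 and gene11239 at -7.15 lie outside the axis.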

How the data were processed

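The authors trimmed reads of pooled larval heads, aligned them with HISAT2 to the RefSeq assembly, quantified them with StringTie and deposited whole-number counts per gene with no normalization. Multiples of 4 made up 39.8% of all counts between 1 and 100, although only 25% of whole numbers are such multiples. All columns matched a labelled library, and 14 bisulfite libraries were not analysed here. Identifiers were named only where the study's supplementary data pair them with a symbol and product (82, of which 15 are members), and the products are those of that pairing. No sequence or scaffold position was used here. The members and the gene lists were chosen with earlier results of these data known.

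The tests used edgeR 4.0.16 in R 4.3.3 (TMM factors, quasi-likelihood, Benjamini-Hochberg adjustment) on the 11777 genes that reached 15 counts in 10% or more of the 46 libraries. Population and care contrasts used 4 groups with block as a covariate, and line differences used 8 groups of line and environment. Correlations used deviations from those 8 group means. The genes named in the text are those with a product name, the 10 with the largest shared fall, the 5 with the highest mean CPM, the 3 on each side of the limit and up to 5 with the lowest p each way in the population and line contrasts. Those named for their correlation or numbering were chosen after their values were seen. Alternatives were DESeq2 1.42.0, DESeq2 size factors in edgeR, other filters and thresholds, no block term, single blocks, and leaving out libraries in turn. Fits were tested on simulated data. Figures were drawn with matplotlib 3.10.9.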

Additional observations from a re-analysis of the deposited data

Results flagged for a closer look

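Each named gene and the mean level of the members were screened for a family far from the others of its line and environment, in 128 groups of 5 or 6 families. There were 22 flags, where chance gives about 5% of groups, and they repeat a few families because these genes move together. Values are log2(CPM + 1).

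Family N1_27 was far below the other N1 families with care for gene8204 (0.16), gene3237 (3.10), gene4423 (1.77), gene6796 (0.53), gene7462 (2.49), gene7362 (3.07), gene3661 (6.42) and gene9612 (1.94). Family F1_18 was far below the other F1 families with care for gene3237 (7.30), gene4423 (6.49), gene89 (1.03), gene6796 (3.27), gene7462 (5.01), gene7362 (5.22) and gene3661 (7.96). In N2 with care, family N2_21 was lowest for gene4423 (7.90) and gene6063 (4.99). Without care, N2_08 was far above the other N2 families for gene89 (6.23) and gene9926 (4.33), F1_01 above the other F1 families for gene89 (5.34) and F2_38 above the other F2 families for gene9907 (3.20). N1_40 was far below the other N1 families without care for gene8825 (3.86).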

How the results depend on the processing

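The care counts, given as a description, were 67 in NC_POP and 106 in FC_POP. They were 43 and 12 in block 1 alone and 2 and 38 in block 2 alone, and at an adjusted p under 0.05 the NC_POP count was 111. Leaving out each library gave 39 to 129 in NC_POP and 96 to 128 in FC_POP. For NC_POP against FC_POP, the 0 calls became 2 by DESeq2, 2 at an adjusted p under 0.05 and 1 in block 2 alone, and stayed at 0 without any 1 library. For N2 against N1, the 1 call became 20 by DESeq2 and 30 at an adjusted p under 0.05 with the fold limit, and 0 in NC_ENV alone and 0 in FC_ENV alone. It ran from 0 to 2 without each library. For F2 against F1, the 1 call became 2 by DESeq2, 2 at an adjusted p under 0.05, 0 in NC_ENV alone and 0 in FC_ENV alone, and ran from 0 to 1 without each library. The other settings left these counts within 1.5 times. The cause was not tested. Shares over all tested genes were not counted for single blocks, for the looser threshold with the fold limit or for libraries left out. The counts in those settings therefore show only how the calls of members depended on the setting. The environment comparisons and the correlations of subsets were chosen after seeing the data. With other scales, pseudocounts or each library left out, the rule kept 136 to 149 of the 150 genes. No paired analysis was possible because family numbers recur only between lines and never between the environments of a line. Small counts limit the 6 members at 0 counts in more than 5 libraries, and the 2 lines per population limit what can be said of populations.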
